A study of Mus musculus with 6 samples.

Results

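Heat shock chaperones were followed in BMDMs, macrophages grown from mouse bone marrow, as 10 genes of the 55335 listed in the deposited count table. They were found by matching the Ensembl identifier of each row, without its version, to the GENCODE M21 symbols Hspa1a, Hspa1b, Hspa5, Hspa8, Hsp90aa1, Hsp90ab1, Hsph1, Hspd1, Dnajb1 and Hsf1. The bone marrow came from femur and tibia of C57BL/6 mice with no engineered allele, and was grown in medium conditioned by L929 cells. The mice were male, and the BMDMs were then given PBS, as control, or LPS, a bacterial cell wall component that activates macrophages through Toll-like receptor signalling, and total RNA was collected after 1 h. There were 3 libraries per group, with replicate numbers that the labels call batches. Nothing states whether these came from separate mice, so p-values measure the spread between these libraries, which may be technical, and the LPS dose of these libraries is not given in the sources used here.

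Heat shock chaperones keep proteins folded. HSP70 proteins bind unfolded stretches and release them in a cycle driven by ATP, J-domain proteins such as Dnajb1 bring them substrates, HSP110 proteins such as Hsph1 exchange their nucleotide, and HSP90 proteins act later on signalling kinases and receptors. Heat, oxidants and other protein-damaging stress release the transcription factor Hsf1, which binds inverted repeats of the unit GAA at the promoters of the stress-inducible members. In macrophages these chaperones are known both for protecting the cell during activation and for holding signalling proteins in an active form.

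Library totals ranged from 37787611 to 41516330 counts, and 3 counts, the floor used here, were worth from 0.0630 to 0.0919 CPM. CPM here are counts scaled to library size and edgeR's TMM factors (a scaling that takes most genes as not changing), given as mean ± SD of 3 libraries. These factors ranged from 1.148 to 1.153 with PBS and from 0.864 to 0.872 with LPS, so they raise LPS values relative to PBS. With them, edgeR's test at an adjusted p under 0.05 placed 32.9% of 15687 tested genes higher with LPS and 34.9% lower. That most genes did not change is therefore not established here. No library stood apart, since Pearson's r across genes ranged from 0.994 to 0.996 within groups and from 0.925 to 0.926 between them. Tnf, a cytokine gene that LPS is known to induce, was higher by a log2 fold change of 6.83 in the LPS libraries. Macrophage markers summed to between 30143 and 31432 CPM with PBS and between 36100 and 36462 CPM with LPS. Among them, Lyz2 had means of 23272 CPM with PBS and 24224 CPM with LPS, and Cd14 of 398 and 3623 CPM. Of the 9 macrophage markers tested, 7 were higher and 1 was lower with LPS. Markers of other cells were low. Dendritic cell markers summed to between 3.32 and 4.23 CPM with PBS and between 10.0 and 11.0 CPM with LPS, with all 5 higher. T cell markers summed to between 21.1 and 22.8 CPM with PBS and between 31.4 and 31.8 CPM with LPS, with 1 of 2 tested higher. That gene, Cd4, made up most of the sum, at means of 21.2 CPM with PBS and 30.4 CPM with LPS. Neutrophil, B cell and stromal cell markers summed to at most 20.6, 3.67 and 20.7 CPM, with 2 of 5, 1 of 3 and 1 of 6 tested higher. The part of other cells in the results below was not tested.

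The stress-inducible HSP70 genes had the largest changes of the 10. Hspa1a and Hspa1b are nearly identical single-exon copies that encode the inducible cytosolic HSP70. Hspa1a (ENSMUSG00000091971.3) lies at chr17:34969190-34972156 and Hspa1b (ENSMUSG00000090877.3) at chr17:34956436-34959238, both on the minus strand of GRCm38. Upstream of their starts, 247 of 250 bases were identical (98.8%), and their coding sequences matched at 1915 of 1926 aligned positions (99.4%). The sequences immediately upstream of both starts are shown because they carry the match to a heat shock element and are nearly identical. They are from RefSeq on GRCm38.p6, read 5′ to 3′ on the minus strand, at chr17:34972157-34972406 for Hspa1a and chr17:34959239-34959488 for Hspa1b. Capitals mark a match to the 2-unit heat shock element GAANNTTC, whose first base is 104 bases upstream of the start, and a CCAAT box read on the other strand, 67 bases upstream.
Hspa1a: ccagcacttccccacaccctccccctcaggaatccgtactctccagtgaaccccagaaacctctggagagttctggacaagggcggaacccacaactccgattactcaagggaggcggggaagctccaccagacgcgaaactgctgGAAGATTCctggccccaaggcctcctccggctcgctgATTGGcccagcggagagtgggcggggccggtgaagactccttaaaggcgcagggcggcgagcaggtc
Hspa1b: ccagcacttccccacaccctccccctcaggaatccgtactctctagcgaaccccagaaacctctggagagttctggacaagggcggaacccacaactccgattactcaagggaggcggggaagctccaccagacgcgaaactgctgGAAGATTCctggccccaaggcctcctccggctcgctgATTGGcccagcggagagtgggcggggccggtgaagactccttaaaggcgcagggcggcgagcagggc

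Hspa1a stood at 2.29, 2.21 and 2.19 CPM in the PBS libraries and at 14.96, 15.3 and 13.6 CPM in the LPS libraries, from 100 to 109 and from 463 to 502 counts. The LPS libraries were all far above the PBS libraries. Its mean rose from 2.23 ± 0.0522 to 14.6 ± 0.916 CPM, a 6.55-fold change with a log2 fold change of 2.71 (SE 0.09) and an adjusted p of 1.27e-14 in edgeR's quasi-likelihood test, adjusted by Benjamini-Hochberg across the 15687 genes that passed its filter. The same test and adjustment gave every adjusted p from here on. Hspa1b stood at 2.73, 2.68 and 2.93 CPM with PBS and at 19.7, 19.9 and 18.4 CPM with LPS. The groups were again well separated, and the mean went from 2.78 ± 0.131 to 19.3 ± 0.805 CPM, a 6.94-fold rise with a log2 fold change of 2.80 (SE 0.08) and an edgeR adjusted p of 1.29e-15. In bulk RNA, a change in the share of cells that express a gene and a change in its RNA per cell cannot be told apart.

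Reads are hard to assign between these copies. Of all stretches as long as a read in the Hspa1a transcript, 56.3% occurred also in a transcript of another gene, 46.9% in Hspa1b, and for Hspa1b the share found in Hspa1a was 49.7%. How the counting treated reads that map to several places is not given in the sources used here. The ratio of Hspa1a to Hspa1b counts within a library does not depend on scaling. It was 0.838, 0.826 and 0.748 with PBS and 0.761, 0.772 and 0.740 with LPS. These values overlapped, with a mean log2 difference of -0.09 and a two-sided exact permutation p of 0.3 over the 20 possible assignments of libraries to groups (0.4 after adjustment over the 8 ratios computed). Summed into 1 gene, the copies had a log2 fold change of 2.76. Hspa1a also shares 564 exonic bases with Gm20481 on the other strand, which had at most 1 count in any library. How reads on the shared bases were counted is not given, so this low count does not show that Hspa1a lost no reads there.

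The constitutive HSP70 genes were the most abundant and rose by a smaller factor. Hspa8 (ENSMUSG00000015656.17; chr9:40800984-40810087, plus strand), the constitutive cytosolic HSP70, stood at 1486, 1385 and 1392 CPM with PBS and at 2108, 2105 and 2139 CPM with LPS. No LPS library fell within the PBS range, and the mean rose 1.49-fold, from 1421 ± 56.2 to 2117 ± 18.5 CPM (log2 fold change 0.58, SE 0.03, edgeR adjusted p = 6.13e-11). With library size alone the log2 fold change was 0.17. Hspa8 holds the small nucleolar RNA genes Snord14c, Snord14d and Snord14e, all at 0 counts. How reads on these shared bases were counted is not given, so those counts do not show that Hspa8 lost no reads there. Of its read-length stretches, 28.4% occur in transcripts of other genes.

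Hspa5 (ENSMUSG00000026864.13; chr2:34771970-34777547, plus strand) encodes BiP, the HSP70 of the endoplasmic reticulum (ER). It stood at 589.6, 583 and 571 CPM with PBS and at 865, 882 and 893 CPM with LPS. The groups did not overlap, and its log2 fold change of 0.60 (SE 0.03, 581 ± 9.50 to 880 ± 14.1 CPM, edgeR adjusted p = 1.61e-11) was close in size to that of Hspa8. With library size alone the log2 fold change of Hspa5 was 0.19. The Hspa5 to Hspa8 count ratio was 0.397, 0.421 and 0.410 with PBS and 0.410, 0.419 and 0.418 with LPS. These ratios overlapped, with a mean log2 difference of 0.02 and an exact permutation p of 0.6. Against Hsp90b1, the HSP90 of the ER, the Hspa5 count ratio was 1.40, 1.46 and 1.37 with PBS and 1.79, 1.78 and 1.78 with LPS. The ratio was therefore 1.27-fold higher with LPS in libraries that did not overlap (log2 difference 0.34, exact permutation p = 0.1), which is the smallest p that 3 against 3 allows. A 30-base stretch before the RefSeq start of Hspa5, at chr2:34772020-34772049 of GRCm38.p6 on the plus strand, is shown because it holds the single match to the ER stress element among the 6 members whose windows were searched, a CCAAT box followed after 9 bases by CCACG, in capitals. It lies within the span that GENCODE gives the gene.
Hspa5: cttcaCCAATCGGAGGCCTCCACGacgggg

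Hsph1 (ENSMUSG00000029657.15; chr5:149614287-149636376, minus strand), the HSP110 nucleotide exchange factor of cytosolic HSP70, stood at 27.5, 25.1 and 26.2 CPM with PBS and at 32.5, 35.5 and 32.6 CPM with LPS. All LPS values were above all PBS values, by a mean of 1.28-fold (26.3 ± 1.20 to 33.5 ± 1.73 CPM, log2 fold change 0.35, SE 0.05, edgeR adjusted p = 1.03e-05). Its call depended on the scaling, since with library size alone the log2 fold change was -0.05 and was not called (edgeR adjusted p = 0.332). Relative to Hspa8 it was lower, with count ratios of 0.0185, 0.0182 and 0.0188 with PBS against 0.0154, 0.0169 and 0.0152 with LPS (log2 difference -0.23, exact permutation p = 0.1).

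Both cytosolic HSP90 genes were higher with LPS, the inducible one by more. Hsp90aa1 (ENSMUSG00000021270.13; chr12:110690605-110702728, minus strand), the stress-inducible HSP90 alpha, stood at 166, 159 and 165 CPM with PBS and at 249, 242 and 254 CPM with LPS. These groups were apart by a mean of 1.52-fold (163 ± 3.91 to 248 ± 6.05 CPM, log2 fold change 0.61, SE 0.03, edgeR adjusted p = 1.90e-11). With library size alone the log2 fold change of Hsp90aa1 was 0.20. Hsp90ab1 (ENSMUSG00000023944.14; chr17:45567775-45573271, minus strand), the constitutive HSP90 beta, stood at 347, 354 and 347 CPM with PBS and at 418, 452 and 440.0 CPM with LPS. It rose 1.25-fold (349 ± 3.72 to 436 ± 17.1 CPM, log2 fold change 0.32, SE 0.03, edgeR adjusted p = 2.38e-07), but this direction turned with scaling by library size alone, where its log2 fold change was -0.08 (edgeR adjusted p = 0.0316). The ratio of Hsp90aa1 to Hsp90ab1 counts, free of scaling, was 0.478, 0.449 and 0.475 with PBS and 0.596, 0.536 and 0.578 with LPS. Relative to the beta gene, the alpha gene was higher in every LPS library than in any PBS library, by a log2 difference of 0.29 between group means (exact permutation p = 0.1). Of the read-length stretches of Hsp90aa1, 37.8% occur in other genes, most of them in Gm12346, which had from 38 to 72 counts, and for Hsp90ab1 none do.

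Hspd1, Dnajb1 and Hsf1 did not rise by the test. Hspd1 (ENSMUSG00000025980.14; chr1:55077835-55088243, minus strand), the mitochondrial HSP60 chaperonin, stood at 75.8, 71.6 and 70.8 CPM with PBS and at 70.4, 76.1 and 72.8 CPM with LPS. The groups overlapped and the means were 72.7 ± 2.66 and 73.1 ± 2.84 CPM (log2 fold change 0.01, 95% interval -0.08 to 0.09, edgeR adjusted p = 0.882). Its direction is not settled by the scaling, since its log2 fold change was -0.40 under library size alone and -0.14 under upper quartile scaling. Hspe1, its HSP10 partner, starts 111 bases away on the other strand, overlaps it over 112 exonic bases and had a log2 fold change of 0.06 (edgeR adjusted p = 0.223). The count ratio of Hspd1 to Hspe1 was 1.83, 1.66 and 1.77 with PBS and 1.57, 1.77 and 1.73 with LPS, which overlap (log2 difference -0.06, exact permutation p = 0.5). Of the read-length stretches of Hspd1, 22.2% occur in the pseudogene Hspd1-ps3, at 48 to 95 counts per library.

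Dnajb1 (ENSMUSG00000005483.10; chr8:83608193-83612653, plus strand), the J-domain partner of cytosolic HSP70 and a classical stress-inducible gene, was the member that fell. It stood at 26.3, 25.8 and 25.6 CPM with PBS and at 21.4, 21.9 and 21.3 CPM with LPS. Every LPS library was below every PBS library (25.9 ± 0.344 to 21.5 ± 0.315 CPM, log2 fold change -0.27, SE 0.05, edgeR adjusted p = 1.06e-04). The count ratio to Hspa8, which no scaling touches, was 0.0177, 0.0186 and 0.0184 with PBS and 0.0101, 0.0104 and 0.00997 with LPS. Dnajb1 thus stood at 0.558 of its PBS level relative to Hspa8, with groups apart (log2 difference -0.84, exact permutation p = 0.1). For Hspa1a over Hspa8 the same ratio went the other way, from 0.00154, 0.00160 and 0.00157 with PBS to 0.00709, 0.00729 and 0.00636 with LPS, a 4.40-fold rise (log2 difference 2.14, exact permutation p = 0.1).

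Hsf1 (ENSMUSG00000022556.11; chr15:76477422-76501913, plus strand), the heat shock transcription factor itself, stood at 15.7, 16.2 and 15.9 CPM with PBS and at 17.1, 17.6 and 17.5 CPM with LPS. The libraries of the groups did not overlap, but the difference was small and just missed the threshold (15.9 ± 0.283 and 17.4 ± 0.266 CPM, log2 fold change 0.13, 95% interval 0.01 to 0.25, edgeR adjusted p = 0.0527). Fitted with replicate blocks it had an edgeR adjusted p of 0.0484, and with library size alone the log2 fold change was -0.28 (edgeR adjusted p = 2.32e-04).

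**Figure D1:**
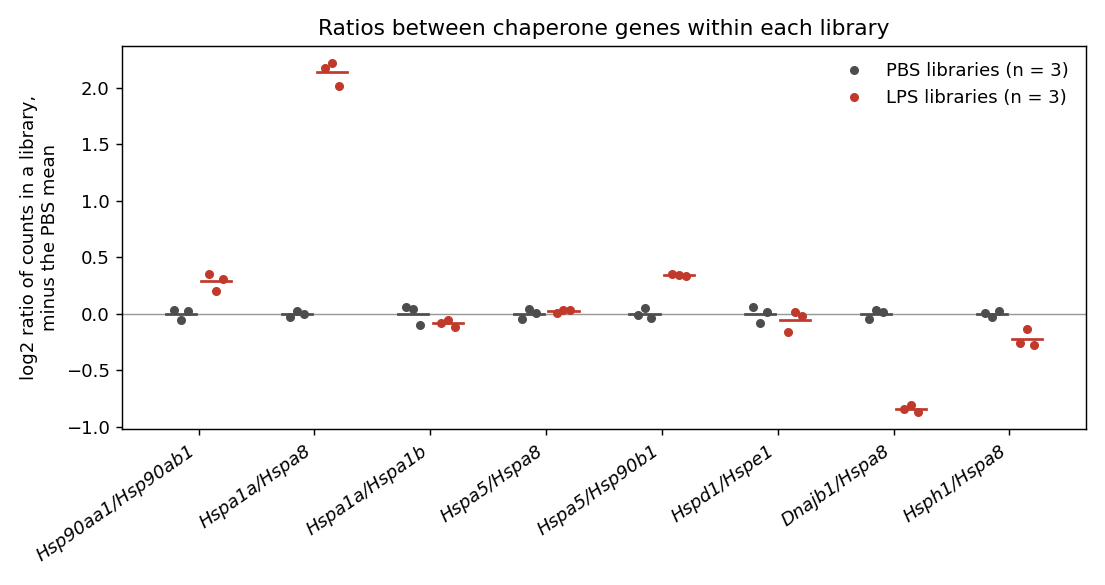
Log2 ratio of counts between 8 pairs of chaperone genes in each of the 3 PBS and 3 LPS libraries, minus the mean of the PBS libraries, with group means as bars. The 5 pairs Hsp90aa1/Hsp90ab1, Hspa1a/Hspa8, Hspa5/Hsp90b1, Dnajb1/Hspa8 and Hsph1/Hspa8 are apart between groups, and the other 3 overlap.

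Of the 8 ratios, 5 were apart between the groups. Each had an exact permutation p of 0.1 and an adjusted p of 0.16, so none could pass a threshold of 0.05 in this design. The ratios show unequal change between genes, not which of the pair changed.

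Counted together, 7 of the 10 members were higher with LPS at an adjusted p under 0.05 and 1 was lower, while 32.9% of the 15687 tested genes were higher and 34.9% lower. At a log2 fold change above 1 as well, 2 members were higher, Hspa1a and Hspa1b, against 10.5% of all tested genes. No member had a log2 fold change below -1, against 10.4% of all tested genes that were lower by that rule, and edgeR, DESeq2 and limma voom each gave 0 such members, Dnajb1 being the lowest. The median log2 fold change was 0.46 over the members and -0.01 over all tested genes. All 10 passed the filter on low counts. The scaling matters for the smaller changes: of all calls 48.6% were higher with TMM, 33.8% with upper quartile scaling and 18.5% with library size alone, which shifted the median gene by -0.40. With library size alone, 5 members were higher, namely Hspa1a (2.31), Hspa1b (2.39), Hsp90aa1 (0.20), Hspa5 (0.19) and Hspa8 (0.17), and 4 were lower. The 10 genes together held 0.314, 0.302 and 0.301% of all counts with PBS and 0.332, 0.334 and 0.340% with LPS, shares without any scaling factor that did not overlap.

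**Figure D2:**
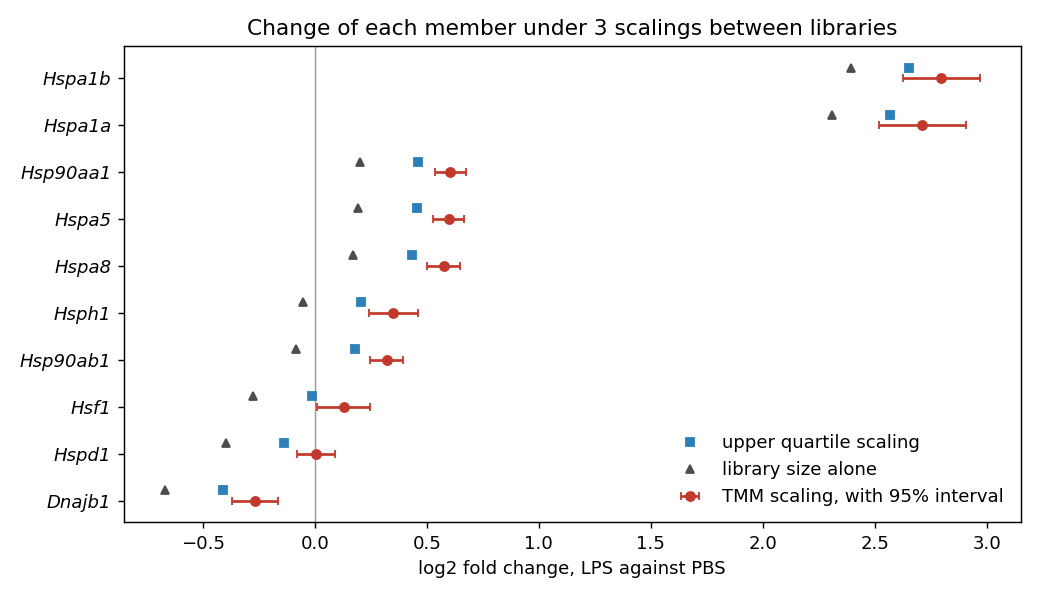
Log2 fold change of LPS against PBS for each of the 10 genes, with TMM scaling (points, 95% intervals from edgeR's fit), upper quartile scaling (squares) and library size alone (triangles). Hspa1a and Hspa1b lie between 2.31 and 2.80 under TMM and library size alone, Dnajb1 is below 0 under all 3 scalings, Hsp90ab1 and Hsph1 are below 0 with library size alone, and Hspd1 and Hsf1 are below 0 with both alternatives.

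Per length, the order of the members as counted changed at its lower end. In CPM per kb of exon, the PBS order was Hspa8 (330.3 ± 13.1), Hspa5 (137 ± 2.25), Hsp90ab1 (117 ± 1.24), Hsp90aa1 (41.5 ± 0.994), Hspd1 (27.5 ± 1.01), Dnajb1 (8.08 ± 0.107), Hsph1 (3.62 ± 0.165), Hsf1 (2.24 ± 0.0398), Hspa1b (0.991 ± 0.0466) and Hspa1a (0.752 ± 0.0176). All neighbours in this order were apart in every library. With LPS the first 5 kept their order, followed by Hspa1b (6.89 ± 0.287), Dnajb1 (6.72 ± 0.0983), Hspa1a (4.93 ± 0.309), Hsph1 (4.62 ± 0.238) and Hsf1 (2.45 ± 0.0375). There Hspa1b and Dnajb1 overlapped, as did Hspa1a and Hsph1. The length used is that of all exons merged over the annotated transcripts, including stretches shared with other genes. Shared stretches made up 56.3% of Hspa1a and 49.7% of Hspa1b. If reads mapping to several places were left out, these levels are too low, so the order at the lower end is uncertain. Even with LPS the inducible HSP70 copies stayed far below Hspa8, at 492 CPM per kb. The genes whose log2 CPM profile over the 6 libraries, centred on each gene's mean, lay nearest to that of Hspa1b were Bcl2l11 (Euclidean distance 0.106), Id2 (0.108), H2-M2 (0.124), Gm37084 (0.126) and Pdpn (0.139), with log2 fold changes from 2.75 to 2.85. Hspa1a was at rank 12 of 15686 genes in this order (0.172). With only PBS and LPS groups, a small distance mostly reflects a similar size of change, and shared regulation was not tested.

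**Figure D3:**
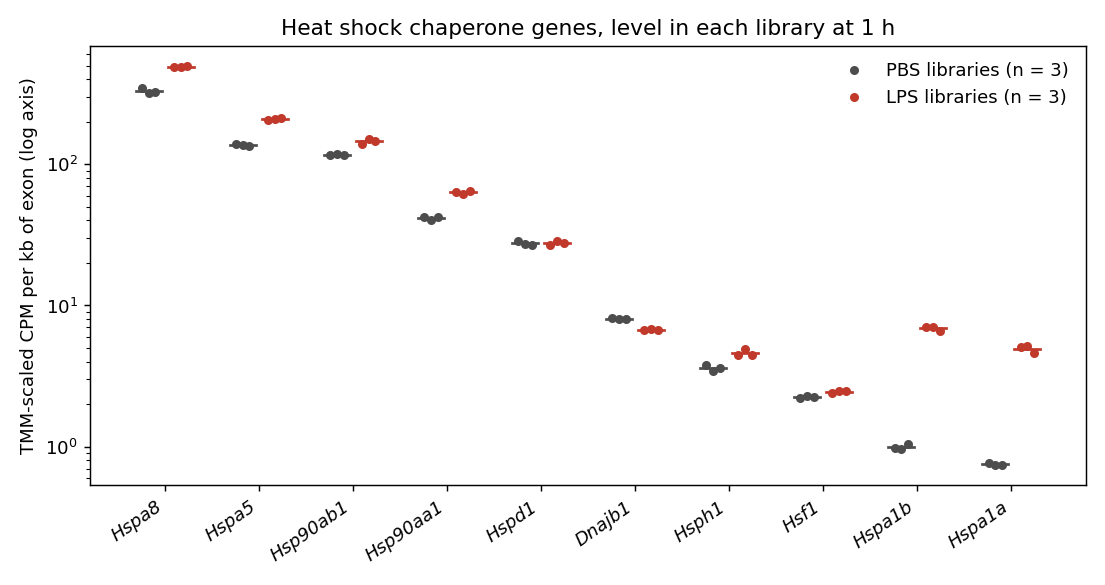
TMM-scaled CPM per kb of exon (log axis) of the 10 heat shock chaperone genes in each of the 3 PBS and 3 LPS libraries, 1 point per library with the group mean as a bar, ordered by the PBS mean. Hspa1b and Hspa1a are last with PBS, at means of 0.991 and 0.752, and stand at 6.89 and 4.93 with LPS, while the points of Hspd1 overlap.

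Matches to known promoter elements were counted in RefSeq windows of GRCm38.p6, from 250 bases before to 50 bases after each start. Both strands were covered for every element except the NF-kB consensus, which was searched on the gene's strand only. Of the members, 6 had windows, 9 in all: Hspa1a, Hspa1b, Hspa5, Hspd1, Hsph1 and Dnajb1. GAANNTTC occurred in 5 of the 9 member windows, from 4 members, and in 7.86% of all 32851 windows. The complementary arrangement TTCNNGAA occurred in 3 of the 9, from 2 members, and in 8.52% of all windows. The member windows are not independent, since those of Hspa1a and Hspa1b are nearly identical and those of Hsph1 overlap. Both arrangements overlap in the 3-unit element, either GAANNTTCNNGAA or TTCNNGAANNTTC. It was found in 3 of the 9 member windows, from 2 members, Hspd1 and Hsph1, and in 0.603% of all windows. These are shown because they match the 3-unit element, the Hspd1 stretch with 2 overlapping matches. The windows of Hspa1a and Hspa1b, the members with the largest changes, hold an exact match to the shorter element. Only exact letters were searched, so in any window a longer element with mismatched bases would have been missed. The stretches lie at chr1:55088053-55088082 and chr5:149636279-149636308 of GRCm38.p6, read on the minus strand, with the matches in capitals. The Hspd1 stretch lies upstream of an internal RefSeq start and also in the window of Hspe1, and the Hsph1 stretch lies just after both RefSeq starts of that gene.
Hspd1: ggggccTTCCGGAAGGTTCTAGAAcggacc
Hsph1: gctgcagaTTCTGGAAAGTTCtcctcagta

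A CCAAT box (CCAAT or ATTGG) occurred in 7 of the 9 member windows, from all 6 members, and in 37.4% of all windows. The ER stress element occurred in 1 member window, that of Hspa5, and in 0.119% of all windows. The cyclic AMP element TGACGTCA occurred in no member's window, against 1.79% of all windows, which says only that these letters are not in these windows. On the gene's strand, the NF-kB consensus sequence occurred in no member's window, against 2.77% of all windows. Its reverse complement was not searched, so matches on the other strand would have been missed.

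Genes of the other chaperone lists were called in both directions. Over 11 lists with 146 distinct genes, 128 were tested, of which 55 were higher, 39 lower and 34 not called, with a median log2 fold change of 0.08. Among all tested genes 32.9% were higher and 34.9% lower. These counts and those of the single lists are a description only, and whether any list differs from all tested genes was not tested. The directions of these smaller changes depend on scaling: with upper quartile scaling 34 of the 128 were higher, and with library size alone 14 were higher and 99 lower.

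Of the other HSP70 and HSP110 genes, 7 of 9 tested were higher and 1 lower, with a median of 0.24, but with library size alone 3 were higher and 6 lower, and without PBS replicate 3 none was lower. Hspa13, an HSP70 of microsomes, rose from 39.9 ± 2.42 to 78.2 ± 3.67 CPM (log2 fold change 0.97, SE 0.05, edgeR adjusted p = 2.91e-12), Hspa2, best known from testis, had a log2 fold change of 0.62, and Hspa9, the mitochondrial HSP70, one of 0.33. Of the other HSP90 genes, Hsp90b1 was higher (0.26) and the other tested gene was not called, while with library size alone both were lower.

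Among J-domain co-chaperones, the family of Dnajb1, 14 of 36 tested were higher and 13 lower, with a median of 0.01 and 5 genes higher and 1 lower past a log2 fold change of 1. With library size alone 7 were higher and 25 lower. Dnajb4, another cytosolic partner of HSP70, went from 18.3 ± 0.649 to 98.1 ± 3.32 CPM (log2 fold change 2.42, SE 0.04, edgeR adjusted p = 9.19e-19). Dnajb2 went from 5.61 ± 0.666 to 35.2 ± 0.539 CPM (2.65, SE 0.07, edgeR adjusted p = 2.64e-16). Dnajc28 fell furthest, from 7.04 ± 0.199 to 0.579 ± 0.0444 CPM (-3.60, SE 0.14, edgeR adjusted p = 7.97e-14). Dnajb1 and Dnajb4, both of J-domain class B, went in opposite directions.

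Of the HSP70 nucleotide exchange factors and regulators, 3 of 12 were higher and 4 lower (median 0.06), with Grpel2, the exchange factor of mitochondrial HSP70, at -1.10, Bag4 at -0.73 and Bag3 at 0.39. Of the HSP90 co-chaperones, 6 of 16 were higher and 8 lower (median -0.13). Stip1, the adaptor between HSP70 and HSP90, rose from 50.3 ± 0.339 to 101.2 ± 5.81 CPM (log2 fold change 1.01, SE 0.04, edgeR adjusted p = 2.45e-13), while Cdc37l1 (-0.71) and Ppid (-0.47), a cyclophilin that binds HSP90, fell. With library size alone these lists had 0 and 1 genes higher and 9 and 13 lower.

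Of the subunits of the cytosolic chaperonin CCT and of prefoldin, which hands substrates to it, 9 of 15 were higher and 1 lower. The higher ones rose by small amounts, with Pfdn4, Vbp1 and Cct8 each at 0.24. The 1 lower gene fell past a log2 fold change of -1, and is not among the named genes, which needed a mean of at least 50 counts. With library size alone none was higher and 14 were lower, and with upper quartile scaling 1 was higher and 3 lower. Of 13 mitochondrial chaperones and proteases, 2 were higher and 7 lower (median -0.24), with Dnaja3 and Clpx each at -0.45, and all 13 were lower with library size alone. Only 3 of the 10 small heat shock protein genes passed the filter and Hspb3 had 0 counts in every library. None of the 3 was called by edgeR, DESeq2 or limma voom, and 1 had an unadjusted p under 0.05 in edgeR's test. Under some alternatives there were calls: 2 were lower under library size alone, and 1 each under upper quartile scaling, with a filter of 10 counts in every library, without the 10 most abundant genes and without LPS replicate 1.

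Of the heat shock factors and their binding proteins, 3 of 7 were tested. Hsf2, a second heat shock factor, rose from 18.6 ± 0.869 to 32.95 ± 2.37 CPM (log2 fold change 0.82, SE 0.06, edgeR adjusted p = 6.65e-10), and Hsbp1, which binds and restrains Hsf1, was at -0.09 (edgeR adjusted p = 0.0320). The call for Hsbp1 was lost without PBS replicate 1 (edgeR adjusted p = 0.0874), PBS replicate 2 (0.0766), LPS replicate 1 (0.0885) or LPS replicate 3 (0.0656), and with DESeq2's size factors (0.0792) or DESeq2's own test (0.152). With library size alone, 1 gene of this list was higher and 2 were lower. Of the classical targets of Hsf1 outside the members, 6 of 13 tested were higher and 4 lower, with a median of 0.16, and with library size alone 3 were higher and 7 lower. Besides Dnajb4 and Stip1, Dnaja1, a farnesylated J-domain partner of HSP70, rose from 71.8 ± 0.965 to 150.0 ± 4.48 CPM (1.06, SE 0.03, edgeR adjusted p = 8.10e-15).

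Of 27 genes for ER chaperones and the unfolded protein response, the list nearest to Hspa5, 18 were higher and 5 lower, with a median of 0.24, and with library size alone 3 were higher and 20 lower. Ppp1r15a, which directs dephosphorylation of the translation factor eIF2 alpha, went from 22.7 ± 1.19 to 522 ± 21.05 CPM (log2 fold change 4.53, SE 0.05, edgeR adjusted p = 2.09e-22). Ddit3, the stress transcription factor CHOP, fell from 20.4 ± 0.893 to 8.54 ± 0.451 CPM (-1.26, SE 0.07, edgeR adjusted p = 1.23e-11).

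**Figure D4:**
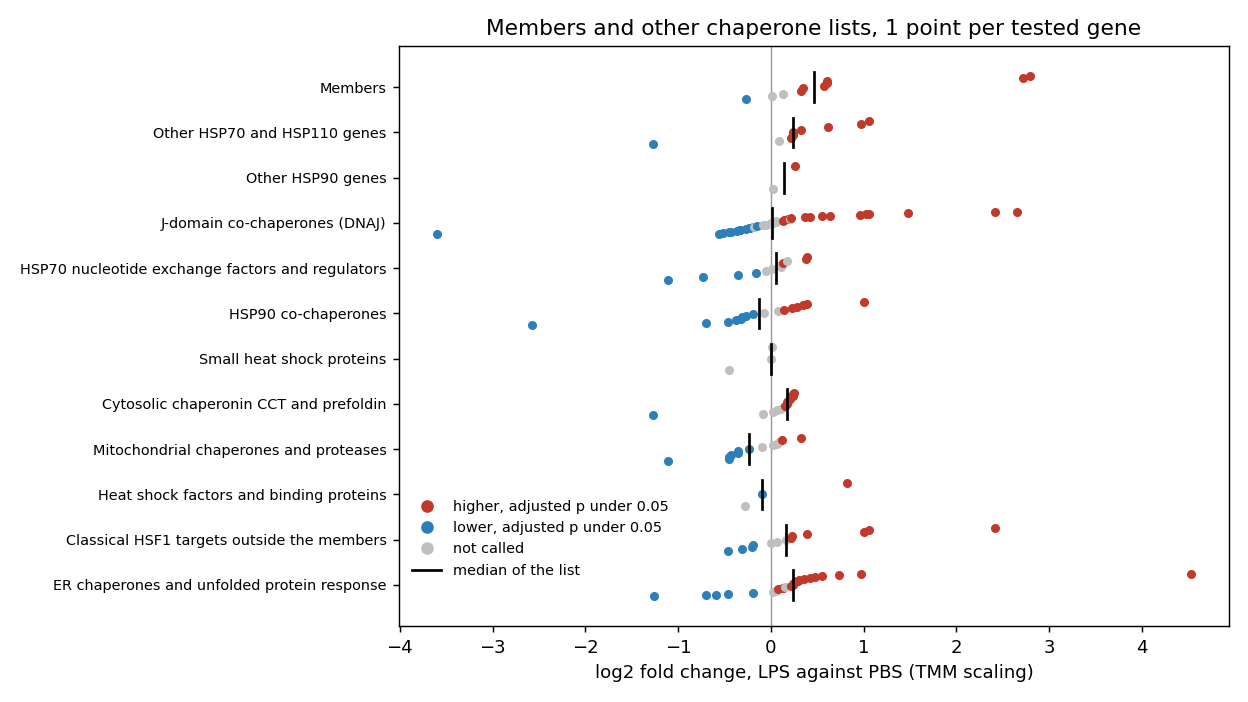
Log2 fold change of LPS against PBS under TMM scaling, 1 point per tested gene, for the members and the 11 other chaperone lists, with the median of each list as a bar. The members' median is 0.46, the J-domain genes spread from -3.60 to 2.65, and Ppp1r15a stands at 4.53 in the list of the ER.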

How the data were processed

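Total RNA of 6 BMDM libraries was prepared with a stranded kit and sequenced as paired-end reads of 101 bp. The authors aligned reads to GRCm38 with HISAT2 2.1.0, counted them per gene with featureCounts 2.0.0 and deposited raw counts. The annotation release, strand setting and treatment of reads mapping to several places are not given in the sources used here. Of 55335 rows, 55154 were named from GENCODE M21 by identifier without version.

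Counts were filtered with filterByExpr (15687 genes), scaled by TMM and tested with edgeR 4.0.16 (quasi-likelihood, Benjamini-Hochberg over all tested genes) in R 4.3.3. The standard error is the log2 fold change divided by the square root of F. Floors cover counting error only. The labels call replicate numbers batches. Deviations from the group mean in same-numbered PBS and LPS libraries had correlations of -0.0139, 0.0822 and 0.0387. For libraries with different numbers they ranged from -0.0817 to 0.0446. The main model has no block. Alternatives were other scalings, filters and tests (DESeq2 1.42.0, limma 3.58.1), the replicate block and leaving out each library. Functions were tested on simulated data.

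Members, gene lists and ratios were chosen with earlier results of these data known. Beyond the members, up to 3 genes per list with the largest absolute log2 fold change among those called with a mean of at least 50 counts were named, and the 5 genes nearest to the member that changed most. The result of 1 marker list is not reported here.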

Additional observations from a re-analysis of the deposited data

How the results depend on the processing

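Hspa1a, Hspa1b, Hspa5, Hspa8 and Hsp90aa1 were higher, and Dnajb1 lower, under each of the 15 alternatives run on the counts. With library size alone the counts of all tested genes were 2354 higher, 10337 lower and 2964 lower past a log2 fold change of -1, 4 members were lower, and the other chaperone lists had 14 distinct genes higher and 99 lower. With upper quartile scaling 2 members were lower and 34 list genes higher. A filter of 10 counts in every library left 1027 genes lower past the fold, with fewer genes tested. The sign turned with library size alone for Hsp90ab1 (-0.084), Hsph1 (-0.054), Hspd1 (-0.40) and Hsf1 (-0.28), and with upper quartile scaling for Hspd1 (-0.14) and Hsf1 (-0.014). For Hspd1 it turned also without the filter (-0.017) and with the stricter filter (-0.0096), and it lay between -0.022 and 0.036 when 1 library was left out. Leaving out 1 library gave 7 members higher and 1 lower each time. The replicate block called Hsf1 (edgeR adjusted p = 0.0484), giving 8 members higher and 1 lower, and changed no other member's call. DESeq2's size factors and limma voom also called Hsf1 (adjusted p = 0.0284 and 0.0476), and DESeq2's own test did not (0.0804). The cause of these differences was not tested. The ratios of counts kept their direction, or moved by less than the spread between replicates, with 1 count added and with each library left out. With 3 libraries per group no exact test of a ratio can give a p under 0.1.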
